A study of Mus musculus with 4 samples.

Results

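Among 35694 nuclei from the right cerebral cortex of adult male mice, 357 nuclei were selected by the raw molecule counts (UMIs, 1 per captured transcript) of 7 genes as candidate layer 5/6 near-projecting excitatory neurons. A nucleus was taken when it held at least 1 UMI of Slc17a7, the vesicular glutamate transporter of most cortical excitatory neurons, and no UMI of Gad1 or Gad2, the enzymes of GABA synthesis. It also had to hold at least 3 UMIs of Tshz2 and at least 2 of Vwc2l, both known markers of near-projecting neurons, and none of Syt6 or Deptor, markers of layer 6 corticothalamic and layer 5 intratelencephalic neurons. The 2 Control libraries (CrT+/y) held 86 of 8282 and 71 of 9295 such nuclei, and the 2 CrT-KO libraries (CrT-/y) held 102 of 9270 and 98 of 8847. Each library came from the cortex of 1 animal, on a C57Bl/6J background, with littermates as controls and nuclei sorted by flow cytometry. CrT-KO mice lack exons 5 to 7 of the X-linked gene Slc6a8 in the whole body, so UMIs from the rest of its transcript can remain.

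Near-projecting neurons are glutamatergic cells of layer 5 and upper layer 6 whose axons stay largely within the nearby cortex, unlike the corticothalamic, extratelencephalic and intratelencephalic neurons around them. Slc6a8 encodes the creatine transporter CrT, which carries creatine into cells together with sodium and chloride. Inside the cell creatine kinases pass phosphate between creatine and ATP, and loss of the transporter in people causes a cerebral creatine deficiency with intellectual disability.

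The gate kept few of the nuclei that carried both markers. Of 1464 nuclei with at least 3 Tshz2 and 2 Vwc2l UMIs, 869 had no Slc17a7 UMI, and 693 of these had no Gad1 or Gad2 UMI either. A further 55 had Slc17a7 together with Gad1 or Gad2. Of the remaining 540 excitatory nuclei, 35 were removed for a Syt6 UMI and 164 for a Deptor UMI, with 16 holding both. Detection of Slc17a7 was thin in the selected nuclei as well, since 241 of the 357 held exactly 1 UMI of it. Free RNA can give marker UMIs to any nucleus. In an oligodendrocyte gate (Mbp and Mog UMIs, no Slc17a7, Gad1 or Gad2), which should lack both genes, 8 of 2418 nuclei (0.331%) met the Tshz2 and Vwc2l minimums, at a median of 1533 UMIs against 7326 in the selected nuclei.

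Depth over all selected nuclei was similar between genotypes. The selected nuclei had a median depth of 7013 and 7356 UMIs in Control and 8063.5 and 7141 in the CrT-KO libraries, and they held 3063759 UMIs in all. The other 10611 excitatory nuclei had a median of 8674. Scrublet, which scores nuclei for resemblance to simulated mixtures of nuclei, marked 3, 6, 1 and 4 of the selected nuclei as doublets in Control replicates 1 and 2 and CrT-KO replicates 1 and 2, and these were kept unless stated. Pairs of libraries shared 12 to 19 barcodes over all nuclei and 0 among the selected nuclei. Libraries, not nuclei, served as replicates, with 2 animals per genotype. The gene tests borrow information on the spread between libraries across genes, so their p does not measure each gene's own spread alone.

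Tshz2, a zinc-finger transcription factor, and Vwc2l, a secreted protein with von Willebrand factor C domains, were used to choose the nuclei, so their levels describe the gate and support nothing. Tshz2 stood at 2737 and 2517 CPM (UMIs per 1000000 UMIs of the same nuclei) in the Control libraries and at 2655 and 2903 CPM in the CrT-KO libraries, against 187 to 221 CPM in the other excitatory nuclei. Vwc2l stood at 853 and 1054 CPM in Control and at 883 and 1098 CPM in CrT-KO. Per nucleus, Tshz2 ranged from 3 to 79 UMIs with a median of 22, and Vwc2l from 2 to 30 with a median of 7. The 15 nuclei at exactly 3 Tshz2 UMIs had 336 CPM of Tshz2, and 16 nuclei just outside the gate with 2 UMIs had 176 CPM. The 57 nuclei at exactly 2 Vwc2l UMIs had 233 CPM of Vwc2l, and 88 nuclei just outside with 1 UMI had 99.4 CPM.

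The near-projecting label held for a part of the gate only. When all excitatory nuclei were clustered without the 7 gate genes, the selected nuclei fell into 23 clusters. The cluster holding most of them, called here the leading cluster, took 141 of the 357 (39.5%) and consisted of 187 nuclei, 75.4% of them selected. Another 56 selected nuclei lay in cluster 2 and 44 in cluster 3, and 116 were scattered over the remaining 20 clusters. Cluster 2 consisted of 87 nuclei, 64.4% of them selected, and cluster 3 of 455 nuclei, 9.67% of them selected. Each library gave the leading cluster a like part of its selected nuclei, 37.2% and 39.4% in Control and 38.2% and 42.9% in CrT-KO. The 46 nuclei of the leading cluster that the gate missed included 31 with a Deptor UMI, 8 with a Syt6 UMI and 11 with fewer than 2 Vwc2l UMIs, and 0 of them had fewer than 3 Tshz2 UMIs. Near the thresholds the leading cluster was rare. It held 0 of the 15 nuclei at 3 Tshz2 UMIs and 11 of the 57 at 2 Vwc2l UMIs, but 118 of the 217 nuclei (54.4%) with at least 10 Tshz2 and 4 Vwc2l UMIs.

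**Figure D1:**
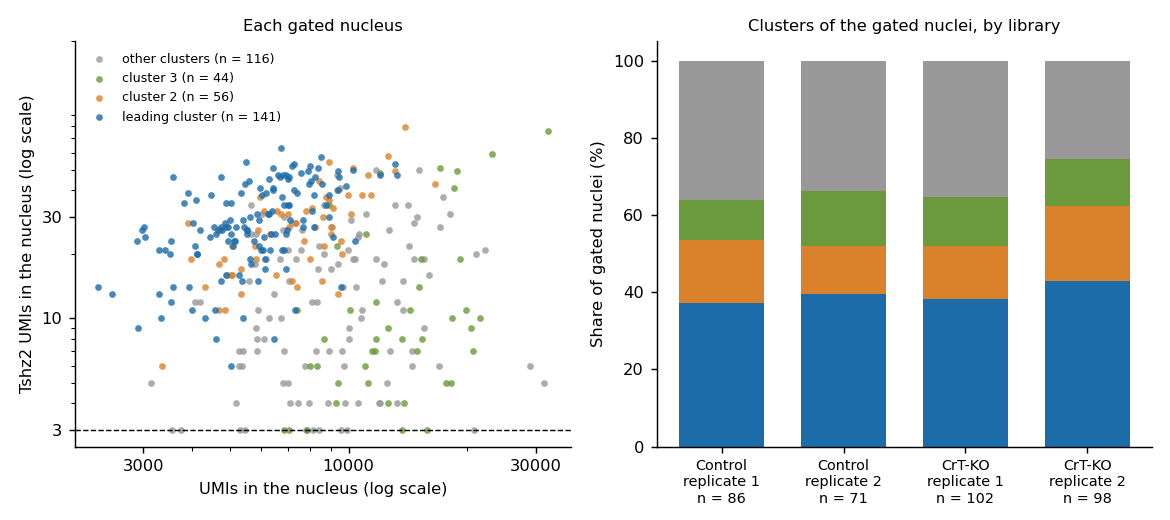
Left, Tshz2 UMIs against all UMIs of each selected nucleus (both log axes), coloured by cluster, with the gate's minimum of 3 dashed. Right, share of each library's selected nuclei (%) in the leading cluster, cluster 2, cluster 3 and other clusters in the same colours. The leading cluster holds 37.2% to 42.9% in all 4 libraries, and cluster 3 lies toward high total UMIs and low Tshz2.

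Of 13 near-projecting markers that the gate did not use, most were high in the leading cluster and near the level of other excitatory nuclei in the selected nuclei outside it. The values that follow are means over the 4 libraries with their SD. They describe clusters drawn from the same nuclei, so no test was run on them. Slc17a8, a vesicular glutamate transporter found in few cortical neurons, stood at 43.2 ± 11.9 CPM (SD, n = 4 libraries) in the leading cluster and at 0.363 ± 0.193 in other excitatory nuclei. Outside the leading cluster 0 of 2208628 UMIs came from Slc17a8, which allows a level of up to 1.36 CPM by counting error alone. All 38 Slc17a8 UMIs of the selected nuclei therefore came from the leading cluster. Trhr, the receptor for thyrotropin-releasing hormone, stood at 94.2 ± 29.5 CPM in the leading cluster, 4.97 ± 3.38 outside it and 5.93 ± 0.205 in other excitatory nuclei. Htr2c, a serotonin receptor, stood at 743 ± 105, 131 ± 21.3 and 85.8 ± 11.1 CPM in the same order. Neither receptor's library values in the leading cluster overlapped those outside it.

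Transcription factors of the marker list followed. Fezf2, which sets subcerebral identity during development, stood at 34.5 ± 11.6 CPM in the leading cluster and at 6.39 ± 3.86 outside it, and Tle4, a corepressor of deep-layer neurons, at 645 ± 56.2 and 90.2 ± 31.2 CPM. Rapgef3, a cAMP-activated exchange factor, stood at 43.2 ± 7.37 and 3.42 ± 3.42 CPM. Npsr1, the neuropeptide S receptor, departed from this order. It stood at 232 ± 87.1 CPM in the leading cluster and at 164 ± 164 CPM outside it, where Control replicate 1 alone reached 405 CPM and the other libraries 58.4 to 131 CPM. Itga8, an integrin subunit on the same list, was low in the leading cluster at 10.8 ± 13.2 CPM and stood at 92.2 ± 33.6 CPM outside it, and Tph2 gave 0 UMIs in the leading cluster.

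Summed over the 13 markers, the leading cluster reached 1882 to 2203 CPM per library, the selected nuclei outside it 371 to 848 CPM and other excitatory nuclei 365 to 430 CPM. At least 3 of the 13 markers were detected in 76.6% of the selected nuclei of the leading cluster, 22.7% of those outside it, 15.6% of other excitatory nuclei and 0.744% of nuclei in the oligodendrocyte gate. After thinning every nucleus to 4000 UMIs, which left out shallower nuclei, these shares were 64.5% (78 of 121), 10% (21 of 210) and 3.27% (49 of 1500) for the leading cluster, the rest of the gate and a sample of other excitatory nuclei. The nuclei outside the leading cluster were thus deeper, at a median of 9056 against 5907 UMIs, and still held fewer markers. Among markers of neighbouring classes, the 3 layer 6 corticothalamic genes outside the gate (Hs3st4, Foxp2 and Rprm) summed to 3022 to 3616 CPM in the leading cluster, 523 to 856 CPM in the selected nuclei outside it and 1395 to 1541 CPM in other excitatory nuclei. Of these, Hs3st4 stood at 3021 CPM in the leading cluster against 1302 CPM in other excitatory nuclei and Foxp2 at 283 against 171. A corticothalamic comparison, the Syt6 gate, took excitatory nuclei with at least 2 Syt6 UMIs and none of Vwc2l or Deptor. It carried 4471 CPM of Hs3st4 and 1024 CPM of Foxp2, both above the leading cluster. Nuclei with a Syt6 UMI were left out of the selection but kept among other excitatory nuclei, which in part sets these levels. The 3 layer 6 intratelencephalic markers (Oprk1, Osr1, Car3) gave 0 UMIs in all selected nuclei. Of the 4 layer 6b markers, Ccn2 gave 5 UMIs, Moxd1 gave 4 and Cplx3 and Nxph4 gave 0, and all 4 were at 0.295 to 3.91 CPM in other excitatory nuclei.

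**Figure D2:**
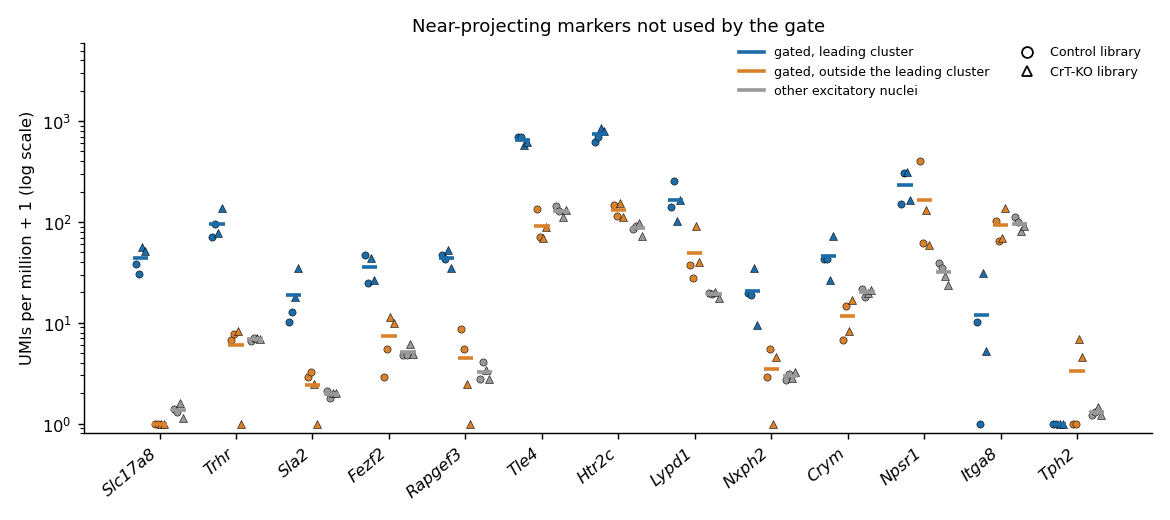
Level of the 13 near-projecting markers that the gate did not use (CPM + 1, log axis) in 3 populations, with 1 point per library (circles Control, triangles CrT-KO) and a bar at the mean. Slc17a8, Trhr, Htr2c, Tle4 and Rapgef3 in the leading cluster lie above both other populations, while Npsr1 overlaps and Itga8 runs the other way.

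The leading cluster differed from other excitatory nuclei over a wide set of genes. Of 5768 genes with at least 20 CPM in either population, 198 (3.43%) were at least 2-fold higher and 304 (5.27%) at least 2-fold lower in each of the 4 libraries. The genes with the largest folds among those above 50 CPM were Myzap, Kcnip1 and Nxph1. Kcnip1, which binds Kv4 potassium channels, stood at 742 and 635 CPM in Control and 699 and 749 CPM in CrT-KO, against 10.9 to 16.5 CPM in other excitatory nuclei, a 52.1-fold difference of the means. Nxph1, a secreted ligand of alpha-neurexins best known from interneurons, stood at 2082 and 2873 CPM in Control and 2152 and 2936 CPM in CrT-KO, a 49.1-fold difference. Myzap, a cell-junction protein first described in heart muscle, stood at 85.2 to 154 CPM against 1.06 to 1.53 CPM. The actin-bundling protein Lcp1, at 125 to 186 CPM, and the lipid-transfer protein Stard5, at 110.0 to 160 CPM, were 37.8-fold and 24.9-fold higher. None of these 5 genes belonged to the marker list or to the gate.

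Receptors for modulators and for glutamate stood apart as well. Among 16 measured serotonin, peptide and other G protein receptors, 6 were at least 2-fold higher in all 4 libraries (Htr2c, Chrm2, Npsr1, Hcrtr2, Trhr and Htr4) and 4 were at least 2-fold lower (Oprd1, Htr2a, Crhr1 and Chrm3), beside 3.43% and 5.27% of all genes. Of the 6, Htr2c, Npsr1 and Trhr were also on the marker list above. Htr4, a serotonin receptor coupled to cAMP production, stood at 371 to 622 CPM against 26.4 to 35.7 CPM. Hcrtr2, a receptor for the wake-promoting orexins, stood at 106 to 171 CPM against 12.3 to 20.2 CPM. Chrm2, a muscarinic acetylcholine receptor, stood at 728 to 1490 CPM against 116 to 180.0 CPM, with the highest value in Control replicate 2. Among 13 AMPA, NMDA and kainate receptor genes, the kainate receptors Grik1 (1233 to 2137 CPM against 123 to 135) and Grik3 (631 to 766 against 179 to 208) and the NMDA receptor subunit Grin3a (113 to 264 against 38.1 to 43) were higher and 0 were lower.

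Deep-layer transcription factors were higher in 6 of 15 measured genes, beside 3.43% of all genes, with Fezf2 and Tle4 also on the marker list. Tox stood at 1317 to 1338 CPM against 258 to 315. Etv1, a marker of layer 5, stood at 362 to 452 CPM against 35.2 to 40.4, and Bcl11b, a factor of subcerebral neurons, at 297 to 375 against 115 to 145. Sox5, Fezf2 and Tle4 were the others, and the upper-layer factor Cux2 was lower, at 0 to 17.8 CPM against 145 to 180. Part of this was shared with the Syt6 gate, which stood at 290 CPM of Bcl11b, near the 336 CPM of the leading cluster. Its Tle4 level of 398 CPM lay between the 641 CPM of the leading cluster and the 127 CPM of other excitatory nuclei. Fezf2 was lower in the Syt6 gate, at 10.5 CPM against 35.1 CPM in the leading cluster. Ion channel genes were mixed, beside 3.43% of all genes higher and 5.27% lower. Of 26 potassium and HCN channel genes 2 were higher (Kcnt2 and Kcnip1) and 4 lower, among them Kcnc2, a Kv3 channel of fast-spiking cells, at 21.2 to 51.1 CPM against 364 to 458. Of 18 sodium and calcium channel genes 2 were lower, and the calcium channel subunit Cacna2d3 had 29.8 to 42.3 CPM against 1079 to 1379 CPM.

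For adhesion and guidance genes the shares over all genes were likewise 3.43% higher and 5.27% lower. Of 24 axon guidance genes 3 were higher, including the netrin receptor Dcc at 5179 to 6507 CPM against 932 to 1067, and 9 were lower, including Ntng2, Unc5d and Slit3. Of 24 synaptic adhesion genes Nxph1 alone was higher and 4 were lower, among them Tenm3 at 89.1 to 188 CPM against 519 to 590.2. Lrtm1 and Syt17 gave 0 UMIs in the leading cluster and 55.4 to 74.8 and 59.2 to 68.2 CPM in other excitatory nuclei. Kitl, the ligand of the Kit receptor, gave 1 UMI.

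**Figure D3:**
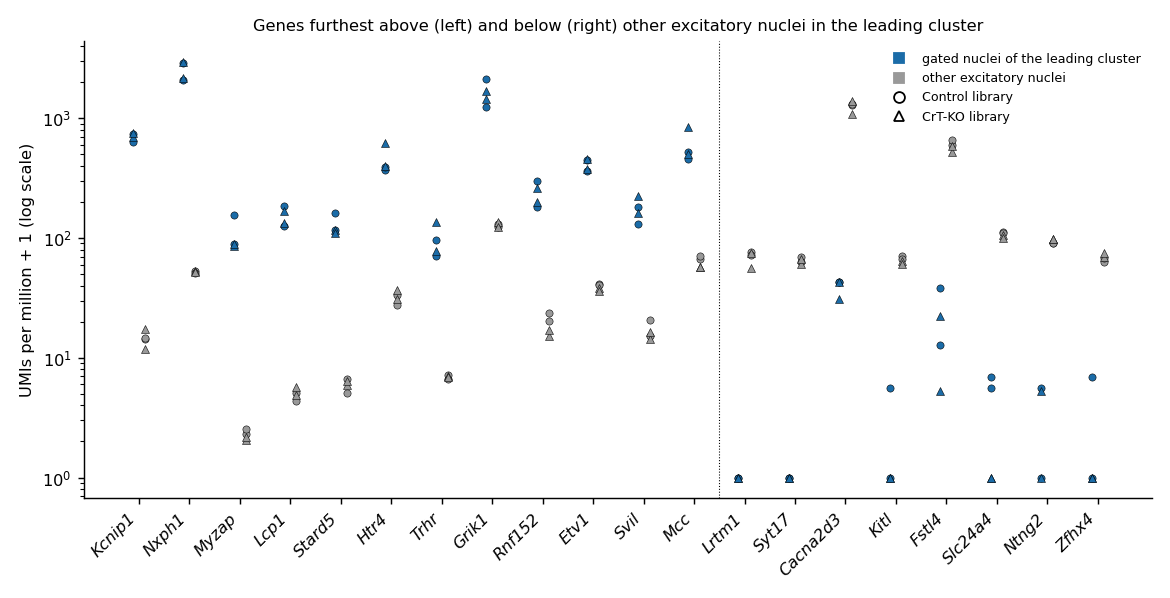
The 12 genes furthest above (left of the dotted line) and the 8 furthest below (right) other excitatory nuclei in the leading cluster, as CPM + 1 (log axis) with 1 point per library (circles Control, triangles CrT-KO). Kcnip1, Nxph1 and Myzap lie above the other excitatory nuclei in all 4 libraries, and Lrtm1 and Syt17 lie at 0 CPM.

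Selected nuclei outside the leading cluster were much closer to other excitatory nuclei. Of 5483 genes measured, 18 (0.328%) were at least 2-fold higher and 10 (0.182%) at least 2-fold lower in every library. Cdh20, a cadherin, stood at 230 to 303 CPM against 96.9 to 120 CPM, and Sv2c, a synaptic vesicle protein, at 90.6 to 117 against 24.9 to 30.5. Foxp2, a transcription factor of layer 6 corticothalamic neurons, was lower at 32.3 to 58.4 CPM against 161 to 179. The selection left out nuclei with a Syt6 UMI and the other excitatory nuclei kept them. The Syt6 gate carried 1024 CPM of Foxp2, so the lower level is set in part by the selection. These nuclei were themselves a mixture. In cluster 2, the phosphatase gene Cdc14a stood at 108 CPM against 1.67 in other excitatory nuclei and the ephrin receptor Epha3 at 861 against 137. In cluster 3, Erg, a transcription factor best known from endothelium, stood at 141 CPM against 4.11, and Lgr5, a receptor for R-spondins, at 105 against 7.23. Cluster 3 was deeper than the leading cluster and cluster 2, with a median of 13137 UMIs per nucleus, and its Tshz2 level of 1097 CPM was below the 4963 CPM of the leading cluster and the 3637 CPM of cluster 2.

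The selected nuclei made up 3.45% and 2.51% of excitatory nuclei in the Control libraries and 3.48% and 3.61% in the CrT-KO libraries. The CrT-KO mean of 3.54 ± 0.0960% (SD, n = 2) lay 0.564 percentage points above the Control mean of 2.98 ± 0.667%. The groups did not overlap, but the exact permutation test over the 6 assignments of the 4 libraries gave p = 0.33 (two-sided), the smallest it can give. The difference rested on Control replicate 2, without which it was 0.0919 points. All nuclei of the leading cluster made up 1.69% and 1.52% of excitatory nuclei in Control and 1.64% and 1.99% in CrT-KO, and these ranges overlapped.

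Slc6a8, the targeted gene, was sparse in the selected nuclei and lower in the CrT-KO libraries. The Control libraries held 6 and 7 UMIs (8.17 and 11.4 CPM) and the CrT-KO libraries 3 and 0 UMIs (3.28 and 0 CPM). The ratio of CrT-KO to Control was 0.181, with an exact 95% interval of 0.0331 to 0.659 that covers counting error only. In the leading cluster the selected nuclei held 1 and 4 UMIs in Control and 0 and 0 in CrT-KO. The gene fell below the minimum count for testing. In a fit of all 14397 genes with at least 1 count its log2 fold change was -2.33 (SE 0.85), which missed the threshold (adjusted p = 0.757, edgeR quasi-likelihood test with Benjamini-Hochberg adjustment). Without CrT-KO replicate 1 the value was -5.80 and without CrT-KO replicate 2 it was -1.48. In the other excitatory nuclei, which carried 165 and 143 UMIs in Control and 44 and 37 in CrT-KO, Slc6a8 fell by 1.95 on the log2 scale (SE 0.21, adjusted p = 0.00900, edgeR quasi-likelihood test). The difference between both effects was -0.47 (SE 1.05, adjusted p = 1, edgeR quasi-likelihood test).

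Other genes of creatine metabolism were also sparse. Ckb, the brain creatine kinase, stood at 40.8 and 22.8 CPM in Control and 24.0 and 16.2 CPM in CrT-KO, with overlapping groups and a log2 fold change of -0.65 (SE 0.37, edgeR quasi-likelihood adjusted p = 0.963). Ckmt1, the mitochondrial kinase, stood at 21.8 and 26.1 CPM in Control and 17.5 and 18.7 CPM in CrT-KO, with a log2 fold change of -0.37 (SE 0.40, edgeR quasi-likelihood adjusted p = 0.985). Of the enzymes that make creatine, Gatm gave 5 and 9 UMIs in Control and 7 and 3 in CrT-KO and Gamt gave 1 UMI in all, both below the minimum count for testing.

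Between genotypes, 8 of 6788 genes tested (0.118%) passed an adjusted p of 0.1 in the selected nuclei (edgeR quasi-likelihood test on UMIs summed per library), 3 higher and 5 lower in CrT-KO. An unadjusted p under 0.05 was given by 355 genes, and the median log2 fold change over all genes was 0.0016. All 8 had Control and CrT-KO libraries that did not overlap. They were picked by a small p from these same libraries, so the lack of overlap adds no support. With DESeq2 on the same sums 1 of the 8 passed, Arhgap26. With the stricter gate of at least 5 Tshz2 and 3 Vwc2l UMIs 1 gene passed, Thsd7b. With the looser gate of at least 2 Tshz2 and 1 Vwc2l UMIs 0 genes passed the edgeR test, of 368 with an unadjusted p under 0.05.

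Il1rapl2, an X-linked synaptic adhesion protein related to the interleukin-1 receptor, had the smallest p. It stood at 348 and 217 CPM in the Control libraries and at 673 and 553 CPM in the CrT-KO libraries. Both CrT-KO libraries were above both Control libraries, and the log2 fold change was 1.13 (SE 0.16, quasi-likelihood adjusted p = 6.61e-05). The call was kept when any 1 library was left out, at log2 fold changes of 0.84 to 1.52. UMIs of the gene came from 36, 23, 37 and 41 nuclei, and in each library the 5 nuclei with most of them carried 55.5% to 65.6% of the total.

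The higher Il1rapl2 level was found outside the leading cluster. There it stood at 389 and 275 CPM in Control and at 880.2 and 692 CPM in CrT-KO (log2 fold change 1.27, SE 0.17, quasi-likelihood adjusted p = 0.00308). In the selected nuclei of the leading cluster it stood at 250.4 and 65.3 CPM in Control and at 72.4 and 220.0 CPM in CrT-KO, with a log2 fold change of -0.18 (SE 0.43). The 116 nuclei scattered over the minor clusters held most of its UMIs, at 536 and 385 CPM in Control and 1309 and 975 CPM in CrT-KO. Il1rapl2 also marks layer 5 intratelencephalic neurons, and nuclei with at least 2 Deptor UMIs carried 2095 to 2569 CPM. Tafa1, the other listed marker of that class outside the gate, stood at 2087 and 2554 CPM in Control and at 2458 and 2465 CPM in CrT-KO in the selected nuclei, so its groups overlapped. Tafa1 did not mark the Deptor nuclei here, however, at 1460 CPM against 1821 CPM in other excitatory nuclei. Its overlap therefore cannot show whether the part of such nuclei differed between genotypes. Whether the kinds of nuclei passing the gate differed between libraries in a way that moved this gene was not tested. Median depth outside the leading cluster was 7887.5 and 8656 UMIs in Control and 10047 and 9279 UMIs in CrT-KO. Any part of this depth difference in the Il1rapl2 call was not tested either.

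**Figure D4:**
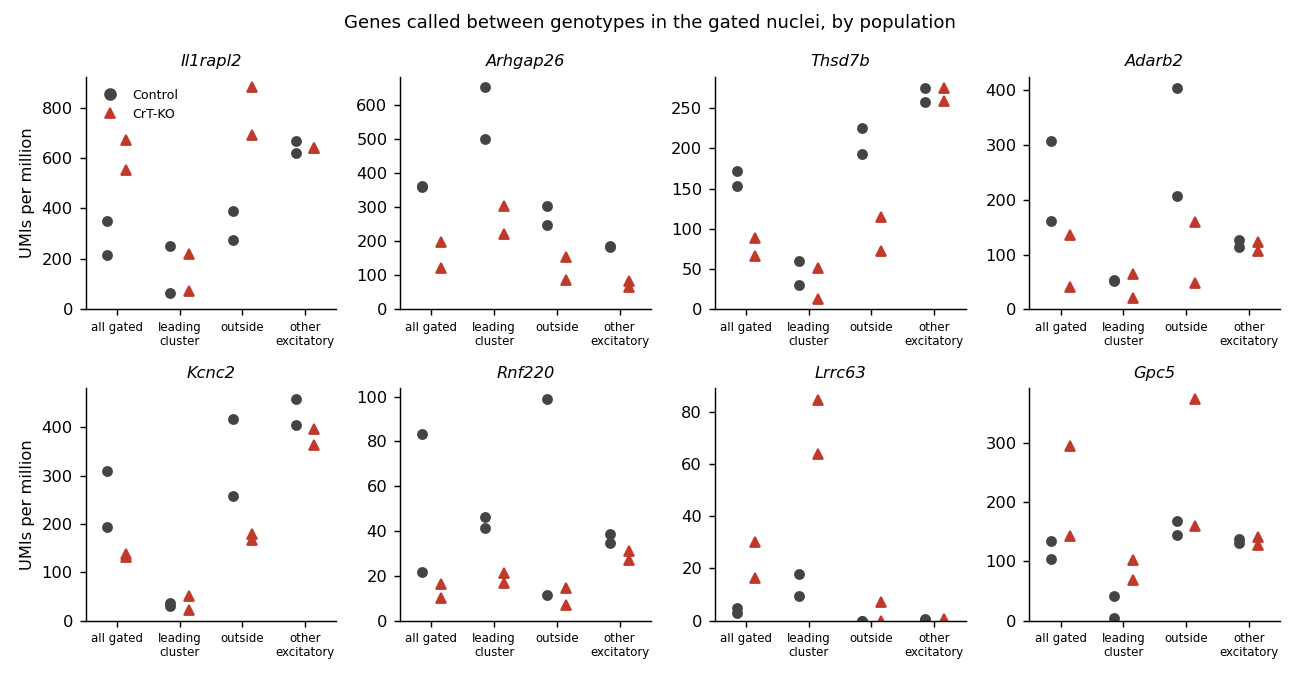
The 8 genes that passed an adjusted p of 0.1 between genotypes, as CPM (linear axes from 0) in all selected nuclei, those of the leading cluster, those outside it and other excitatory nuclei, with 1 point per library (circles Control, triangles CrT-KO). Il1rapl2 separates the genotypes outside the leading cluster and not within it, Arhgap26 separates them in all 4 populations, and Rnf220 is far above the rest in 1 Control library.

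Arhgap26, a GTPase-activating protein, was lower in CrT-KO in the selected nuclei, inside and outside the leading cluster, and in other excitatory nuclei. In the selected nuclei its record ENSMUSG00000118193 stood at 362 and 359 CPM in Control and at 121 and 197 CPM in CrT-KO (log2 fold change -1.17, SE 0.17, quasi-likelihood adjusted p = 0.000128). The call was kept when any 1 library was left out and under DESeq2. It was the 1 gene of 3507 (0.0285%) that passed in the selected nuclei of the leading cluster, at 501 and 653 CPM in Control and 222 and 305 CPM in CrT-KO (log2 fold change -1.12, SE 0.22, quasi-likelihood adjusted p = 0.0933; 156 genes had an unadjusted p under 0.05). Outside the leading cluster it was among 2 of 5675 genes (0.0352%), with Il1rapl2, at a log2 fold change of -1.20 (SE 0.22, quasi-likelihood adjusted p = 0.0954). In other excitatory nuclei, where 15 of 13566 genes (0.111%) passed, it stood at 187 and 184 CPM in Control and 65.9 and 83.8 CPM in CrT-KO (log2 fold change -1.27, SE 0.10). The effect in the selected nuclei differed from that in other excitatory nuclei by 0.10 (SE 0.15, adjusted p = 0.998, edgeR interaction test).

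The annotation places this Arhgap26 record on the plus strand of chromosome 18 (GRCm38, positions 38676718 to 39110534). It overlaps Fgf1 on the minus strand (38838673 to 38929472) and another Arhgap26 record, ENSMUSG00000036452 (38993145 to 39376284, plus strand). Use of strand in counting was not given in the sources used here, so reads of the overlapping records cannot be told apart with certainty. The other record stood at 398 and 400 CPM in Control and 330 and 357 CPM in CrT-KO, with a log2 fold change of -0.19 (SE 0.14, quasi-likelihood adjusted p = 0.963). Fgf1, a fibroblast growth factor, stood at 85.8 and 88.1 CPM in Control and 49.2 and 54.9 CPM in CrT-KO, without overlap, and missed the threshold (log2 fold change -0.72, SE 0.22, quasi-likelihood adjusted p = 0.502).

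Thsd7b, a membrane protein with thrombospondin repeats, stood at 154 and 171 CPM in Control and at 88.5 and 66.1 CPM in CrT-KO, and fell by 1.04 on the log2 scale (SE 0.19, quasi-likelihood adjusted p = 0.00678). The call was lost without Control replicate 2 (adjusted p = 0.284) and without CrT-KO replicate 2 (adjusted p = 0.156), both by edgeR, and the direction stayed. Most of its UMIs lay outside the leading cluster, where it stood at 193 and 225 CPM in Control and 115 and 72.6 CPM in CrT-KO. In other excitatory nuclei it stood at 258 to 275 CPM in all 4 libraries.

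Adarb2, Kcnc2 and Rnf220 were lower in CrT-KO, with Control replicate 2 the highest library for each. Adarb2, an RNA-binding member of the adenosine deaminase family known from interneurons, stood at 161 and 308 CPM in Control and at 135 and 39.9 CPM in CrT-KO (log2 fold change -1.35, SE 0.26, quasi-likelihood adjusted p = 0.0119). In Control replicate 2, 5 of 71 nuclei carried 92.6% of its UMIs. Kcnc2 stood at 193 and 310.1 CPM in Control and at 138 and 132 CPM in CrT-KO (log2 fold change -0.86, SE 0.18, quasi-likelihood adjusted p = 0.0391). Rnf220, an E3 ubiquitin ligase, gave 16 and 51 Control UMIs against 15 and 8 CrT-KO UMIs (log2 fold change -1.88, SE 0.42, quasi-likelihood adjusted p = 0.0724). Without Control replicate 2 all 3 calls were lost, at log2 fold changes of -0.81, -0.49 and -0.67, and that of Adarb2 also without CrT-KO replicate 2 (-0.75). Without the doublets their log2 fold changes were -1.41, -0.86 and -1.59, close to those with all nuclei for Adarb2 and Kcnc2, and the quasi-likelihood adjusted p of 0.115, 0.115 and 0.851 missed the threshold.

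The sum of inhibitory neuron markers differed between the same libraries, but Adarb2 itself and Erbb4 made up most of it. The 7 inhibitory markers outside the gate, Adarb2 among them, summed to 328 and 666 CPM in Control and 396 and 141 CPM in CrT-KO in the selected nuclei, against 294 to 329 CPM in other excitatory nuclei. Of the 7, 6 were detected, Vip gave 0 UMIs and the GABA transporter gene Slc32a1 gave 1 UMI. Erbb4, a neuregulin receptor of interneurons, followed the same order with 136 and 310.1 CPM in Control and 228 and 87.4 CPM in CrT-KO. Its groups overlapped, as did those of the sum. The part of these markers in the 3 calls was not tested.

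Lrrc63 and Gpc5 were higher in CrT-KO at an adjusted p close to the threshold. Lrrc63, a leucine-rich repeat gene, gave 2 and 3 Control UMIs against 15 and 24 CrT-KO UMIs (log2 fold change 2.59, SE 0.60, quasi-likelihood adjusted p = 0.0892). The ratio of its pooled CPM was 6.12, with an exact 95% counting interval of 2.41 to 19.9. In the selected nuclei of the leading cluster, which held nearly all of its UMIs (2 and 3 in Control, 15 and 20 in CrT-KO), it missed the threshold (log2 fold change 2.45, SE 0.61, quasi-likelihood adjusted p = 0.718), and in other excitatory nuclei it stood at 0.363 to 0.531 CPM. The call was lost when any 1 of Control replicate 1, Control replicate 2 or CrT-KO replicate 2 was left out, at quasi-likelihood adjusted p of 0.726, 0.551 and 0.938, with log2 fold changes of 2.21, 3.03 and 2.11. Gpc5, a glypican of the cell surface, stood at 103 and 134 CPM in Control and at 295 and 142 CPM in CrT-KO (log2 fold change 0.92, SE 0.22, quasi-likelihood adjusted p = 0.0892). It rested on CrT-KO replicate 1, without which the log2 fold change was 0.31 (quasi-likelihood adjusted p = 0.996), and was lost without either Control library too (adjusted p = 0.764 without replicate 1 and 0.481 without replicate 2).

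The genes with the next smallest p missed the threshold, and 3 of them are given here. Rbms3, an RNA-binding protein, stood at 206 and 194 CPM in Control and 133 and 105 CPM in CrT-KO (quasi-likelihood adjusted p = 0.144). Alk, a receptor tyrosine kinase, stood at 69.4 and 73.4 CPM against 37.2 and 33.7 CPM (quasi-likelihood adjusted p = 0.207). Cpa6, a carboxypeptidase, stood at 24.5 and 16.3 CPM in Control and 77.6 and 30.0 CPM in CrT-KO (quasi-likelihood adjusted p = 0.173). All 3 were without overlap between genotypes, which adds no support because they were picked by their p.

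Over all 187 nuclei of the leading cluster, including those the gate missed, 3 of 4135 genes (0.0726%) passed the edgeR test, and 238 had an unadjusted p under 0.05. Beside Arhgap26 (log2 fold change -1.20), these were Tafa1, a secreted chemokine-like protein, at 117 and 81.1 CPM in Control and 309 and 169 CPM in CrT-KO (log2 fold change 1.26, SE 0.27, quasi-likelihood adjusted p = 0.0721), and Sgcd, a sarcoglycan, at 2160 and 1690 CPM in Control and 1248 and 1345 CPM in CrT-KO (log2 fold change -0.57, SE 0.12, quasi-likelihood adjusted p = 0.0721). Tafa1 was nevertheless low in this cluster beside the 1555 to 2037 CPM of other excitatory nuclei. Il1rapl2 had a log2 fold change of -0.65 in these nuclei and did not pass. Gpc5 did not pass either, and its sign differed between all 187 nuclei (-0.56, SE 0.33) and the 141 selected ones (1.99, SE 0.57), where it stood at 4.64 and 41.6 CPM in Control and 68.2 and 102 CPM in CrT-KO.

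Of the gene lists describing energy metabolism and stress, 0 members passed in the selected nuclei by the edgeR test, where 0.118% of all genes passed and 355 of 6788 had an unadjusted p under 0.05, so a count of 0 does not set these lists apart. Among 9 tested heat shock chaperones, 2 had a log2 fold change above 0, the median was -0.42 and 3 had an unadjusted p under 0.05. In other excitatory nuclei 0 of 12 were above 0 with a median of -0.43. Among 13 tested nuclear genes of the respiratory chain, 4 were above 0 and the median was -0.16, and among 10 glycolysis genes 5 were above 0 with a median of 0.02. Of 14 endoplasmic reticulum chaperones 7 could be tested, 3 were above 0 and the median was -0.13. Over all 6788 genes, 3412 were above 0. Against the same 0.118%, channels and receptors gave 1 call in all, Kcnc2 among 26 potassium and HCN channel genes, while 0 of 13 AMPA, NMDA and kainate receptors, 0 of 11 GABA-A receptor subunits and 0 of 22 presynaptic release genes passed.

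The genotype effect in the selected nuclei was set against that in the other excitatory nuclei of the same libraries by an interaction test. It passed for 21 of 13205 genes (0.159%), with 601 at an unadjusted p under 0.05, and 9 of the differences were positive and 12 negative. For Il1rapl2 the difference was 1.12 (SE 0.13, quasi-likelihood adjusted p = 2.84e-09), and other excitatory nuclei stood at 621 to 667 CPM in all 4 libraries. For Thsd7b it was -1.07 (SE 0.18, quasi-likelihood adjusted p = 0.000116). Trpm3, a cation channel of the TRP family, stood at 369 and 294 CPM in Control and at 727 and 331 CPM in CrT-KO in the selected nuclei, with overlapping groups and CrT-KO replicate 1 far above the rest. In the others it averaged 478 and 398 CPM, a difference of the effects of 0.87 (SE 0.16). Lrrtm4, a postsynaptic adhesion protein, averaged 4963 and 3974 CPM against 5024 and 5815 CPM, a difference of -0.53 (SE 0.10). Arhgap26, Fgf1 and Slc6a8 did not pass this test. With the selected nuclei of the leading cluster alone 1 gene passed, Tafa1, which was not among the 21.

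**Figure D5:**
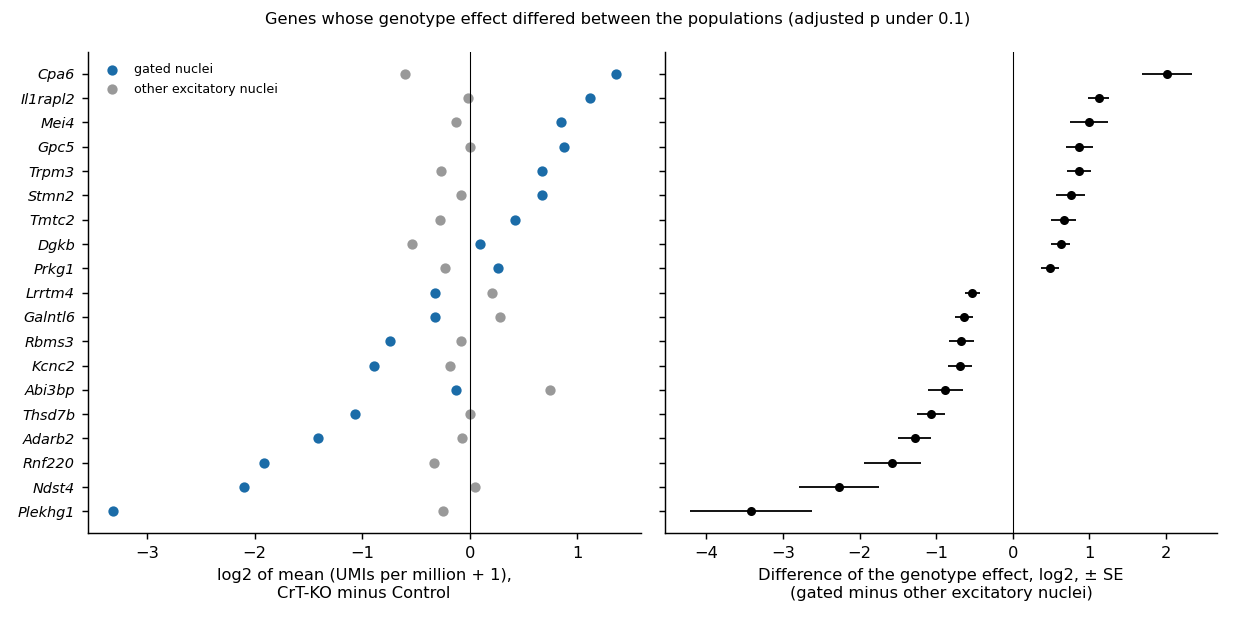
Genes whose genotype effect differed between the selected and the other excitatory nuclei (adjusted p under 0.1). Left, log2 difference of mean CPM + 1 between CrT-KO and Control in each population, right, the fitted difference of the effects with its SE. Il1rapl2 lies near 0 in other excitatory nuclei and has a fitted difference of 1.12. The plot holds 19 of the 21 genes. Bnc2, with 18 UMIs in Control replicate 1 and 0 in the other libraries, is left out of it.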

How the data were processed

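Nuclei were isolated from the right cortex, sorted by flow cytometry and run as 1 droplet library (10x Genomics) per animal. The authors aligned the reads with Cell Ranger 3.1.0 to a mm10 (GRCm38) pre-mRNA reference, so intronic reads were counted, and deposited raw UMI counts per gene and nucleus for 4 libraries. Whether counting used strand was not given in the sources used here. The processing notes also name FastQC and Seurat 3.1.4.

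All deposited nuclei (at least 500 UMIs each) were kept. The gate was applied to raw counts, and the members, the gene lists and the tests were chosen with earlier results of these data known. Excitatory nuclei (Slc17a7, no Gad1 or Gad2) were clustered without the 7 gate genes by Leiden clustering in scanpy 1.11.5 (3000 variable genes, 30 principal components, 20 neighbours, resolution 1). Doublets were marked with Scrublet per library. UMIs were summed over nuclei per library, and genotypes were compared with the edgeR 4.0.16 quasi-likelihood test in R 4.3.3 (TMM, filterByExpr with a minimum count of 10 and a total of 15, Benjamini-Hochberg over all genes tested, threshold 0.1, which is the study's). Slc6a8 was taken from a fit without the low-count filter because it did not pass it. Effects in the gated and the other excitatory nuclei were compared by an interaction term with library as a block. Shares were compared by an exact permutation test.

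Named genes were Slc6a8, the creatine genes, every called gene, the genes of lowest p up to 12 in all, genes called by the interaction test, a fixed set known from earlier results on excitatory neurons, and in the cluster description the genes with the largest folds of mean CPM. Counts of 2-fold genes and all comparisons of clusters are descriptions. Intervals and floors (3 counts) cover counting error only. The tests were tested on simulated data: for the genotype comparison in gated nuclei 0.152% of 6578 unchanged genes, 69.1% of 97 genes changed by 1 on the log2 scale and 100% of 99 genes changed by 2 were called, and for the interaction 0.0695%, 56% and 98%. In the simulation only genes with more UMIs were changed, and all genes were given the same variability. These rates may therefore not hold for sparser or more uneven genes. Gene positions came from GENCODE vM21 (GRCm38), in which 21893 of the 21933 identifiers were found. Alternatives were RLE size factors, DESeq2 1.42.0, no low-count filter, a block by replicate number, leaving out each library, removing doublets, a looser and a stricter gate, membership by cluster and a threshold of 0.05. Fits on selected nuclei inside and outside the leading cluster were chosen after seeing the data. Values of a few genes that these rules name are not reported here.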

Additional observations from a re-analysis of the deposited data

Results flagged for a closer look

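The genotype effect differed between the selected nuclei and the other excitatory nuclei for 21 genes (edgeR interaction test, adjusted p under 0.1), and the differences of 20 of them are given here as the log2 fold change in the selected nuclei minus that in the others. The differences above 0 were 2.02 for Cpa6, 1.12 for Il1rapl2, 0.99 for Mei4, 0.87 for Gpc5, 0.87 for Trpm3, 0.76 for Stmn2, 0.67 for Tmtc2, 0.63 for Dgkb and 0.49 for Prkg1. Cpa6 averaged 20.4 CPM in Control and 53.8 CPM in CrT-KO in the selected nuclei and 36.1 and 23.5 CPM in the others, so its effects ran in opposite directions. Without CrT-KO replicate 1 its log2 fold change in the selected nuclei went from 1.42 to 0.56. Dgkb, a diacylglycerol kinase, averaged 460.2 and 491 CPM in the selected nuclei and 961 and 661 CPM in the others, so its difference lay mostly in the other excitatory nuclei.

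The differences below 0 were -0.53 for Lrrtm4, -0.63 for Galntl6, -0.67 for Rbms3, -0.69 for Kcnc2, -0.88 for Abi3bp, -1.07 for Thsd7b, -1.28 for Adarb2, -1.57 for Rnf220, -2.27 for Ndst4, -3.42 for Plekhg1 and -10.67 for Bnc2. In the last 3 nearly all Control UMIs came from 1 library. Bnc2 gave 18 UMIs in Control replicate 1 and 0 in the other 3 libraries, so its difference rested on that 1 library. Plekhg1 gave 31 of its 34 UMIs in Control replicate 2, and Ndst4 gave 5 and 31 UMIs in Control and 4 and 6 in CrT-KO. Abi3bp averaged 80.1 and 73.2 CPM in the selected nuclei and 37.9 and 64.5 CPM in the others, so its difference lay mostly in the other excitatory nuclei. Rnf220 gave 16 UMIs in Control replicate 1 and 51 in Control replicate 2, and its log2 fold change in the selected nuclei was -0.67 without that library. Without Control replicate 2 the interaction test passed for 14 genes, of which 6 were among the 21.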

How the results depend on the processing

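The number of genes passing between genotypes, 8, moved with most settings. It was 1 with DESeq2 (43 genes at an unadjusted p under 0.05), 16 without the low-count filter, 5 at a threshold of 0.05, 4 without doublets, 0 with the looser gate, 1 with the stricter gate and 3 over all nuclei of the leading cluster. It ranged from 5 to 18 when 1 library was left out (12 without Control replicate 1, 5 without Control replicate 2, 18 without CrT-KO replicate 1, 15 without CrT-KO replicate 2). In the fits chosen after seeing the data it was 1 inside and 2 outside the leading cluster. RLE size factors left it at 8. A block by replicate number gave 19, which included all 8. Deviations of same-numbered libraries from their group means correlated at 0.046 across genes, and the pairing was not used. With 2 libraries per genotype this value cannot show whether same-numbered libraries were processed together. The interaction count of 21 became 5 with the looser gate, 5 with membership by cluster, 2 against the Syt6 gate alone and 1 inside the leading cluster, and was 14 to 25 in the other 9 alternatives. The sign of the Slc6a8 effect held in 13 of 13 alternatives and that of the share difference in 11 of 11. The groups of the share overlapped with both other gates, however. With the looser gate Control replicate 1 was highest, at 4.82% against 4.57% and 4.39% in CrT-KO. With the stricter gate Control replicate 1 stood at 2.77%, above the 2.66% of CrT-KO replicate 1. The cause of these shifts was not tested, except that fewer nuclei and genes enter the fits inside clusters. The depth of 3063759 UMIs over 357 nuclei left genes at a few CPM, Slc6a8 among them, with a handful of counts per library.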

Other observations

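Tafa1, a marker of layer 5 intratelencephalic neurons in the fixed lists, was unevenly spread over the selected nuclei. It stood at 165 CPM in those of the leading cluster, 1369 CPM in cluster 2 and 7805 CPM in cluster 3, against 1821 CPM in other excitatory nuclei. Bcl11b, a factor of subcerebral neurons, stood at 336 CPM in the leading cluster, 4.62 CPM in cluster 2 and 315 CPM in cluster 3. Hs3st4, a heparan sulfate enzyme and corticothalamic marker, stood at 3021 CPM in the leading cluster, 36.9 CPM in cluster 2 and 114 CPM in cluster 3. Cux2 and Cdh13, markers of layer 2/3, stood at 256 and 16.2 CPM in cluster 2 and at 14.6 and 45.4 CPM in cluster 3. The 2 minor clusters thus differed from the leading cluster and from each other in these genes, and no test was run because the clusters were drawn from the same counts.

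Skap1 and Abca4, 2 genes with higher levels in CrT-KO in other excitatory nuclei, had values in the same direction in the selected nuclei. Skap1, a signalling adaptor, stood at 40.8 and 32.6 CPM in Control and 62.3 and 69.9 CPM in CrT-KO (log2 fold change 0.85, SE 0.26, quasi-likelihood adjusted p = 0.480). Abca4, a lipid transporter, gave 1 and 2 UMIs in Control and 8 and 5 in CrT-KO, a ratio of pooled CPM of 3.40 with an exact 95% counting interval of 0.935 to 18.6. Potegl had a log2 fold change of 0.66 (SE 0.51, quasi-likelihood adjusted p = 0.965), and Tnnc1 gave 4 and 1 UMIs in Control and 0 and 1 in CrT-KO.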
